A study of Homo sapiens with 8 samples.

Results

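The genes described are 10 cytosolic aminoacyl-tRNA synthetases known as targets of the stress factor ATF4: AARS1, WARS1, GARS1, CARS1, SARS1, MARS1, NARS1, TARS1, EPRS1 and IARS1. They were found by their NCBI Gene IDs, and all 10 of 10 have a row among the 18555 genes of the deposited count table. Their levels were compared between 3 siNC and 3 siXBP1 RNA-seq libraries. Both groups are cells labelled HepG2, a line from a human liver tumour. The siNC cells received the Allstar control siRNA and the siXBP1 cells an siRNA against XBP1. Both groups were then given 30 nM thapsigargin for 3 hours, starting 2 days after transfection, so every value comes from cells under endoplasmic reticulum (ER) stress and no unstressed arm was part of the comparison. The design asks which transcripts depend on XBP1 while the ER is stressed.

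Aminoacyl-tRNA synthetases join each amino acid to its tRNA and so supply the ribosome with charged tRNAs. In the unfolded protein response, the ER kinase PERK phosphorylates the initiation factor eIF2, which lowers general translation but favours translation of ATF4. ATF4 then induces genes for amino acid uptake, amino acid synthesis and tRNA charging, several cytosolic synthetases among them, through a composite site that a CEBP and an ATF protein share. XBP1s, made from spliced XBP1 mRNA, belongs to a separate arm, started by the ER sensor IRE1, and is best known for genes of ER protein folding, transport and degradation.

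The promoters of these genes are shown first because the CEBP-ATF response element is a feature that most of them share. RefSeq windows of GRCh38.p14, from 250 bases before to 50 bases after each transcription start, were found for all 10 genes and searched on both strands for TGATGNAA, where N is any base. A match was found for 7 of the 10 genes (70%), against 4.46% of the 27305 genes with a window. By window, 1270 of 35116 (3.62%) held the letters. Each stretch below runs 5′ to 3′ on the strand that carries the motif, with the match in capitals.
AARS1: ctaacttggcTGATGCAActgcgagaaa
GARS1: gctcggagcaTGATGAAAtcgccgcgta
CARS1: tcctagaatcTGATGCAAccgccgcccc
MARS1: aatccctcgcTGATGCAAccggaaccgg
NARS1: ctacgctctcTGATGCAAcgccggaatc
TARS1: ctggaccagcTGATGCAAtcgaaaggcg
IARS1: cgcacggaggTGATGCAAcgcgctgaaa

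In that order the stretches lie at chr16:70289676-70289703 (plus strand), chr7:30594835-30594862 (minus), chr11:3057408-3057435 (plus), chr12:57488054-57488081 (minus), chr18:57621805-57621832 (minus), chr5:33440957-33440984 (minus) and chr9:92293693-92293720 (plus). The matched letters were TGATGCAA in 6 genes and TGATGAAA in GARS1 alone. In 6 genes the motif sat on the strand opposite to transcription, and in NARS1 on the transcribed gene's own sense strand. Of the 7 matches, 6 lay between base -33 and base 22 around the transcription start of the window that held them. The AARS1 match began at base -187. GARS1 and TARS1 have 2 windows each, and their matches are counted from the more downstream of the 2 starts. No window of SARS1, EPRS1 or WARS1 held these letters, which says nothing about binding elsewhere. Among the other cytosolic synthetases, 6 genes have a window (FARSA, FARSB, HARS1, KARS1, QARS1 and RARS1) and 0 held the motif. LARS1, VARS1, YARS1 and TARS3 have no entry. Of 20 other textbook ATF4 targets with a window, 6 (30%) held it. The genes were chosen as ATF4 targets and the motif as ATF4's, so the shared match is a description and not independent evidence.

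**Figure D1:**
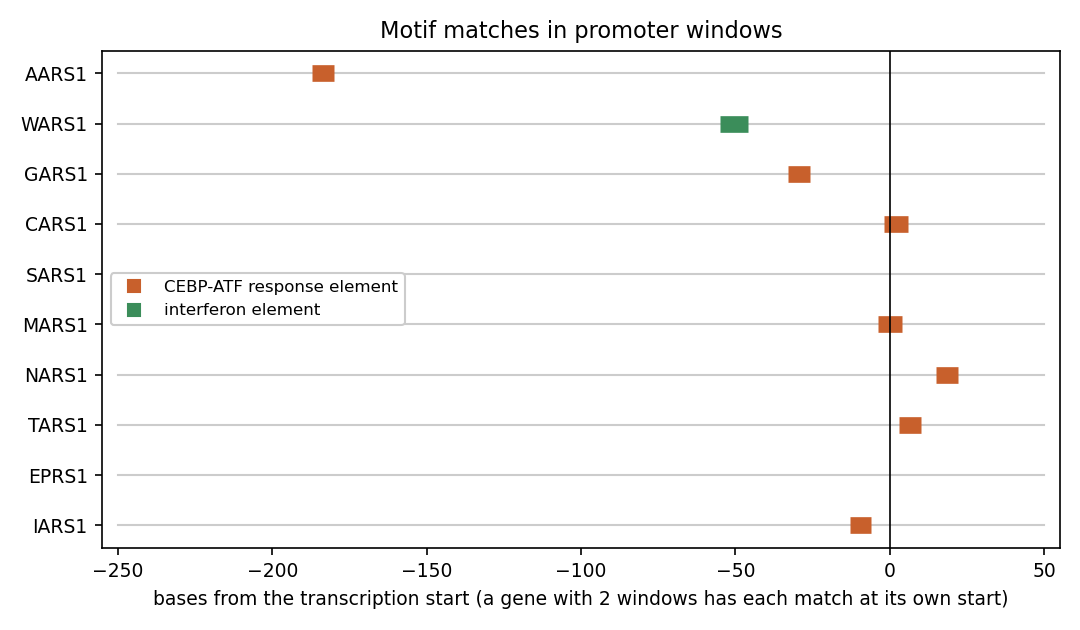
Position of CEBP-ATF and interferon element matches in the RefSeq promoter windows of the 10 synthetase genes. The x axis is the distance in bases from the transcription start, grey lines are the windows and coloured blocks the matches. Of 7 CEBP-ATF matches, 6 lie near the transcription start of the window that holds them and that of AARS1 begins at base -187. For a gene with 2 windows each match is drawn from its own start. WARS1 holds the 1 interferon element.

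Other response elements were found in 3 or fewer of the 10 genes. The XBP1s element TGACGTGG was found in 1 of the 10 genes (10%), in 1 of 2 windows of CARS1, against 0.927% of all genes. Of 17 textbook XBP1s targets with a window, 2 (11.8%) held it. The ER stress element (CCAAT, then 9 bases of any kind, then CCACG) was searched too. Its CCACG reads CGTGG on the other strand, which is part of the XBP1s element. The ER stress element was found in 0 of 10, against 0.0916% of all genes and 3 of the 17 XBP1s targets (17.6%). WARS1 encodes tryptophanyl-tRNA synthetase, which interferon gamma is known to induce. It was the only one of the 10 with the interferon element (GAAA, 2 bases of any kind, GAAA), found in 4.38% of all genes and in 7 of 10 genes of the interferon gamma list that have a window. The WARS1 stretch lies at chr14:100375383-100375412 (minus strand), 55 bases before the more downstream of the gene's 2 starts, and is shown as the only such match among the 10.
WARS1: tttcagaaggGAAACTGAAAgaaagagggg
The gamma activated site TTCNNNGAA was present in windows of WARS1, CARS1 and TARS1, 3 of the 10 genes (30%), against 9.38% of all genes. It did not overlap the CEBP-ATF match in CARS1 or TARS1.

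Library totals lay between 38209972 and 38890070 counts. XBP1 itself (gene ID 7494, chr22:28794560-28800569) was measured at 552, 502 and 500 CPM in siNC, where CPM is a gene's counts scaled to the library total, and at 290, 299 and 276 CPM in siXBP1. It fell by 0.84 on the log2 scale (95% interval -1.03 to -0.65, edgeR adjusted p = 0.0331), leaving 55.7% of the control level. That call ended without siNC replicate 2 (adjusted p = 0.175), siNC replicate 3 (0.213), siXBP1 replicate 1 (0.475) or siXBP1 replicate 2 (0.284), and with upper-quartile factors (0.0546). The cell label was checked with 10 hepatocyte markers, and the data went against it. A row exists for 5 of them and 0 reached a mean of 1 CPM, with a summed level of 0.360 to 0.643 CPM in siNC and 0.837 to 1.25 CPM in siXBP1. ALB, TTR, APOA1, APOB and FGB have no row in the table used here. Summed levels were 4264 to 5685 CPM in siNC and 4170 to 5297 CPM in siXBP1 for KRT7, KRT17, KRT5, KRT14 and TP63, markers of other epithelial cells. KRT17 (3364 CPM over all libraries) and KRT7 (1473 CPM) carried that sum, while KRT14 was at 8.78, TP63 at 0.644 and KRT5 at 0.0171 CPM. Sums were 162 to 190 and 161 to 195 CPM for 5 fibroblast markers, with COL3A1 at 129 and COL1A2 at 0.0174 CPM, 15.7 to 18.7 and 14.3 to 16.7 CPM for 5 endothelial markers, and 0.669 to 0.951 and 0.468 to 0.837 CPM for 5 leukocyte markers. The part of other cell types in the results was not tested. In bulk RNA, fewer cells with a transcript and less of it per cell cannot be told apart.

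None of the 10 synthetases passed edgeR's quasi-likelihood test between siXBP1 and siNC. The call rate over all 14337 genes tested was 0.00697% (1 gene, XBP1). At an unadjusted p under 0.05 the count was also 0 of 10, against 3.61% of all genes, and DESeq2 (0.115% of its 13873 genes) and limma-voom called 0 of 10 as well. With the first principal component of the libraries as a covariate, 0 of 10 were called where 1.2% of all genes were, 0.711% of all genes being called higher in siXBP1 and 0.488% lower. For 7 genes the estimate was above 0 and for 3 below, where 52.8% of all genes had estimates above 0. The median of the 10 log2 fold changes (siXBP1 minus siNC) was 0.04, beside 0.0096 over all genes. The 95% intervals of the single genes reached no lower than -0.26 (NARS1) and no higher than 0.31 (CARS1), that is 0.837-fold and 1.24-fold. The counts behind these values ran from 4668 to 42261 per library. The groups overlapped for 9 of the 10 genes and were separate for WARS1 alone, where 8.75% of all genes had separate groups.

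**Figure D2:**
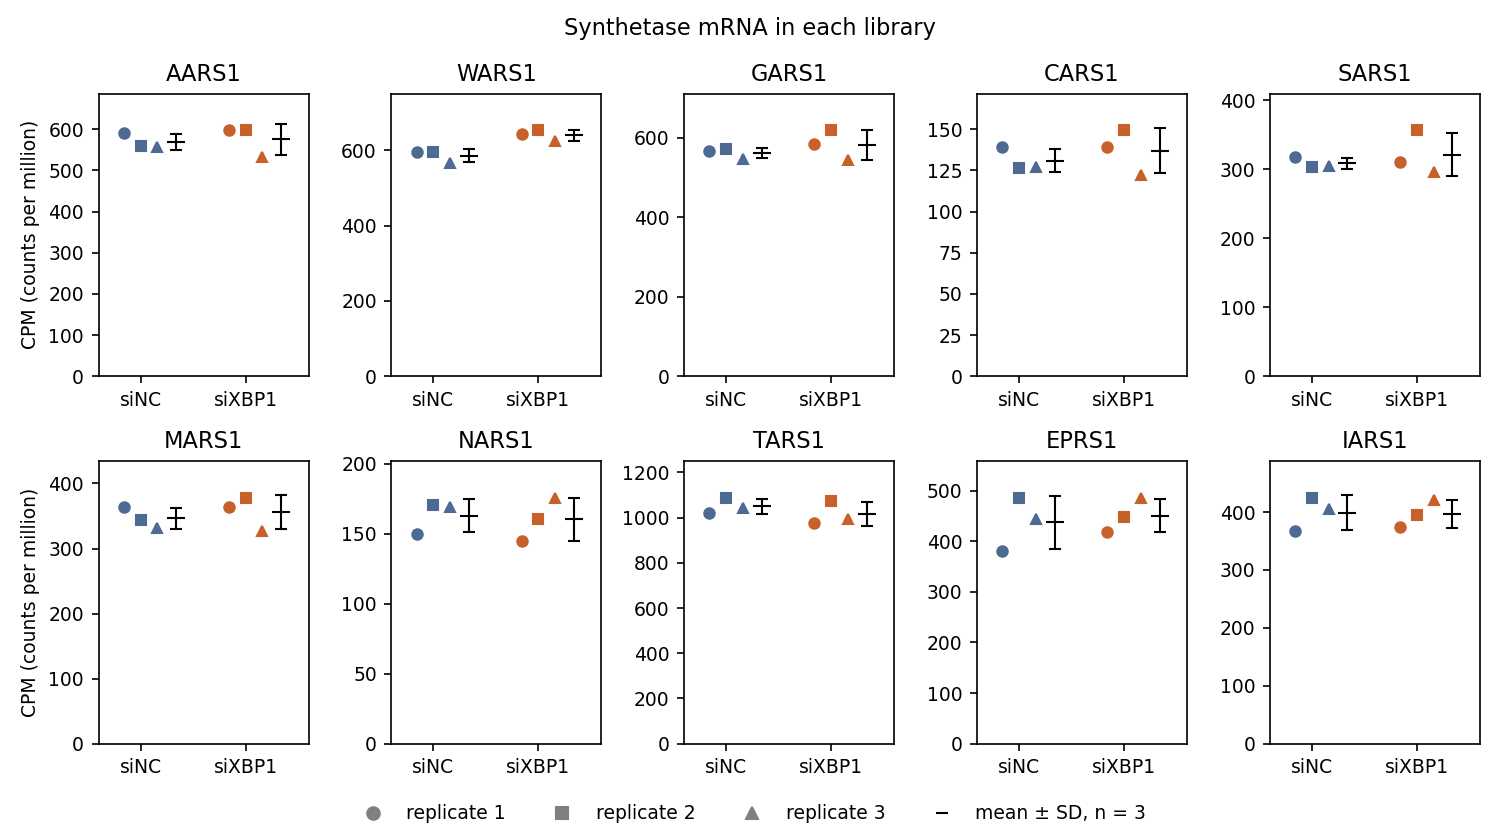
CPM of each synthetase in each library (y axes start at 0 and differ between genes), with siNC in blue and siXBP1 in orange, 1 symbol per replicate, and black bars for mean ± SD (n = 3). The groups overlap in every panel except WARS1, where siNC reached 596 CPM at most and siXBP1 625 CPM at least.

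WARS1 (gene ID 7453, chr14:100333790-100376327) had 596, 595 and 566 CPM in the siNC libraries and 644, 653 and 625 CPM in the siXBP1 libraries. All 3 siXBP1 libraries lay above all 3 siNC libraries. The means were 586 ± 16.9 and 641 ± 14.6 CPM (SD, n = 3 each), so that siXBP1 stood at 109% of siNC. The log2 fold change of 0.13 (SE 0.08, 95% interval -0.04 to 0.30) did not pass the test (edgeR unadjusted p = 0.114, adjusted p = 1.00). It stayed between 0.10 and 0.17 in all 17 alternatives. With both end libraries of the first principal component left out, or with that component as a covariate, the edgeR unadjusted p was 0.0497 and 0.0167. The adjusted p was 0.273 and 0.287. Both fits rest on a component computed from these same libraries, so their p-values are a description. WARS1 is the member with the interferon element shown above. Of 15 genes of the interferon gamma response, 10 were tested, all 10 had estimates above 0 (median 0.34) and 0 were called, with 5 at an unadjusted p under 0.05, where 1.9% of all genes had such a p and a higher level. DESeq2 and limma-voom called 0 of them too. The covariate fit called 2 higher in siXBP1, where it called 0.711% of all genes higher. The fit without both end libraries also called 2 higher, where it called 209 of 14416 genes higher. In the 17 alternatives 0 or 1 gene of this list had an estimate below 0, and the median lay between 0.28 and 0.44. IRF1, a transcription factor of that response, had an estimate of 0.28 on the log2 scale (SE 0.12). Groups were separate for 4 of the 10, all higher in siXBP1, where 5.01% of all genes were separate in that direction. Whether WARS1 and these genes differ together was not tested.

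The other class I enzyme of the 10 outside the multi-synthetase complex is CARS1, which charges tRNA with cysteine (gene ID 833, chr11:3000929-3057423). It had 139, 126 and 127 CPM in siNC and 139, 149 and 122 CPM in siXBP1. The siXBP1 group held both the highest and the lowest library, and its log2 fold change was 0.07 (SE 0.11, 95% interval -0.17 to 0.31). Without both end libraries of the first component it was 0.19 (edgeR unadjusted p = 0.0331, adjusted p = 0.221). An annotated antisense transcript, CARS1-AS1, covers 11867 bases of the gene. It has no row in the table used here, and the strand setting of the counting is not given, so reads from it cannot be told apart from those of CARS1.

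EPRS1, IARS1 and MARS1 belong to the multi-synthetase complex, an assembly of several synthetases held together by scaffold proteins. EPRS1 charges tRNAs with glutamate and with proline (gene ID 2058, chr1:219968600-220046505). It had 381, 486 and 444 CPM in siNC and 419, 448 and 484 CPM in siXBP1. The lowest and the highest value were both from siNC libraries, and its log2 fold change was 0.05 (SE 0.11, 95% interval -0.19 to 0.28). IARS1, the isoleucine enzyme (gene ID 3376, chr9:92210207-92293697), had 367, 424 and 406 CPM in siNC and 374, 395 and 422 CPM in siXBP1. All siXBP1 values fell within the range of siNC, and its log2 fold change was -0.01 (SE 0.09, 95% interval -0.21 to 0.20). MARS1, the methionine enzyme (gene ID 4141, chr12:57488068-57516652), had 364, 344 and 332 CPM in siNC and 364, 378 and 327 CPM in siXBP1. The highest and the lowest library were both from siXBP1, and the log2 fold change was 0.04 (SE 0.09, 95% interval -0.16 to 0.25). The end of MARS1 overlaps that of DDIT3, which encodes the ATF4 target CHOP, by 65 bases. DDIT3 had 329 ± 26.8 CPM in siNC and 312 ± 33.3 in siXBP1 (SD, n = 3 each), so reads in that short stretch are uncertain.

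The remaining members, AARS1, GARS1, SARS1, NARS1 and TARS1, are free class II enzymes. AARS1, the alanine enzyme (gene ID 16, chr16:70252298-70289506), had 590, 560 and 556 CPM in siNC and 597, 597 and 533 CPM in siXBP1. The third siXBP1 library was the lowest of the 6 and the other two were the highest, and the log2 fold change was 0.02 (SE 0.08, 95% interval -0.17 to 0.21). GARS1, the glycine enzyme of both cytosol and mitochondria (gene ID 2617, chr7:30594735-30634033), had 567, 570 and 547 CPM in siNC and 583, 618 and 543 CPM in siXBP1. Its siXBP1 libraries again spanned the siNC range, and the log2 fold change was 0.05 (SE 0.08, 95% interval -0.13 to 0.24). SARS1, the serine enzyme (gene ID 6301, chr1:109213893-109238182), had 318, 303 and 305 CPM in siNC and 310, 356 and 297 CPM in siXBP1. A single siXBP1 library was high and the other two lay within or below the siNC values, with a log2 fold change of 0.06 (SE 0.10, 95% interval -0.16 to 0.28).

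NARS1, the asparagine enzyme (gene ID 4677, chr18:57600656-57621836), had 150, 171 and 169 CPM in siNC and 145, 161 and 176 CPM in siXBP1. The siXBP1 group held the lowest and the highest library, and the log2 fold change was -0.02 (SE 0.11, 95% interval -0.26 to 0.21). TARS1, the threonine enzyme (gene ID 6897, chr5:33440696-33468091), had 1022, 1087 and 1044 CPM in siNC and 977, 1075 and 993 CPM in siXBP1. In siXBP1, replicates 1 and 3 were below all siNC libraries and replicate 2 was inside their range. Its log2 fold change was -0.05 (SE 0.08, 95% interval -0.23 to 0.13), and TARS1 alone of the 10 had an estimate below 0 in all 17 alternatives. Levels of different genes are not ranked here because no transcript lengths were used.

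**Figure D3:**
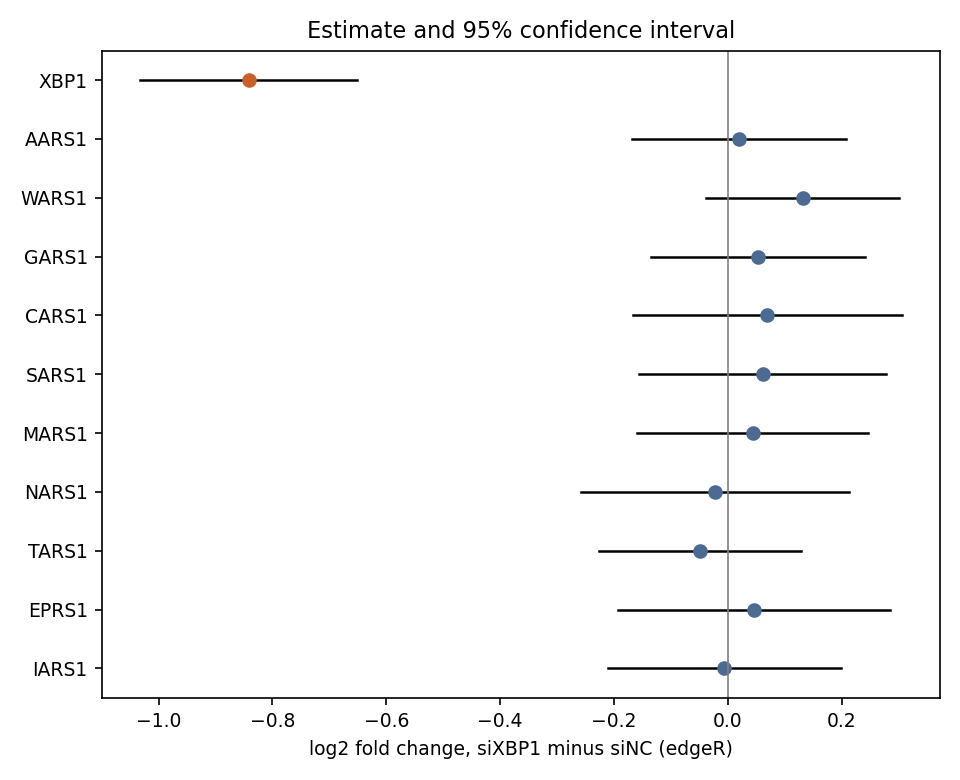
edgeR log2 fold change (x axis, siXBP1 minus siNC) of XBP1 and the 10 synthetases, with points for estimates and lines for 95% confidence intervals. All 10 synthetase intervals include 0 and lie above the XBP1 interval of -1.03 to -0.65.

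Groups were separate for 1 of the 10 members (10%, WARS1), near the 8.75% of all genes. The variation between libraries ran in different directions in different synthetases. The highest library exceeded the lowest by 1.11-fold (TARS1) to 1.27-fold (EPRS1). The first principal component of the 6 libraries (59.1% of the variance over 11528 genes) set siNC replicate 1 (score 0.643) against siXBP1 replicate 3 (-0.648). AARS1, MARS1 and CARS1 followed its score (Pearson's r over 6 libraries 0.87, 0.76 and 0.75), with higher levels in siNC replicate 1 than in siXBP1 replicate 3. NARS1, IARS1 and EPRS1 ran the other way (r -0.87, -0.93 and -0.94), and siNC replicate 1 had 381 CPM of EPRS1 where siXBP1 replicate 3 had 484 CPM. The remaining 4 genes had r between -0.05 (TARS1) and 0.49 (SARS1). Within each set of 3 the pairwise r was 0.94 to 0.97 and 0.85 to 0.96, and between the sets it was -0.87 to -0.57. Choosing genes by their r with the same score favours such values. The sets are not sharply bounded, since GARS1, outside them, had r of 0.80, 0.89 and 0.90 with AARS1, CARS1 and MARS1. The limit of 0.7 that forms the sets was chosen after the values were seen. All points share the same 6 libraries and the 10 genes are themselves among those the component was computed from. By the same limit, 26.7% of the 11528 genes, all with mean counts of 100 or more, followed the score and 28.8% opposed it, so 3 and 3 of 10 are near the background.

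**Figure D4:**
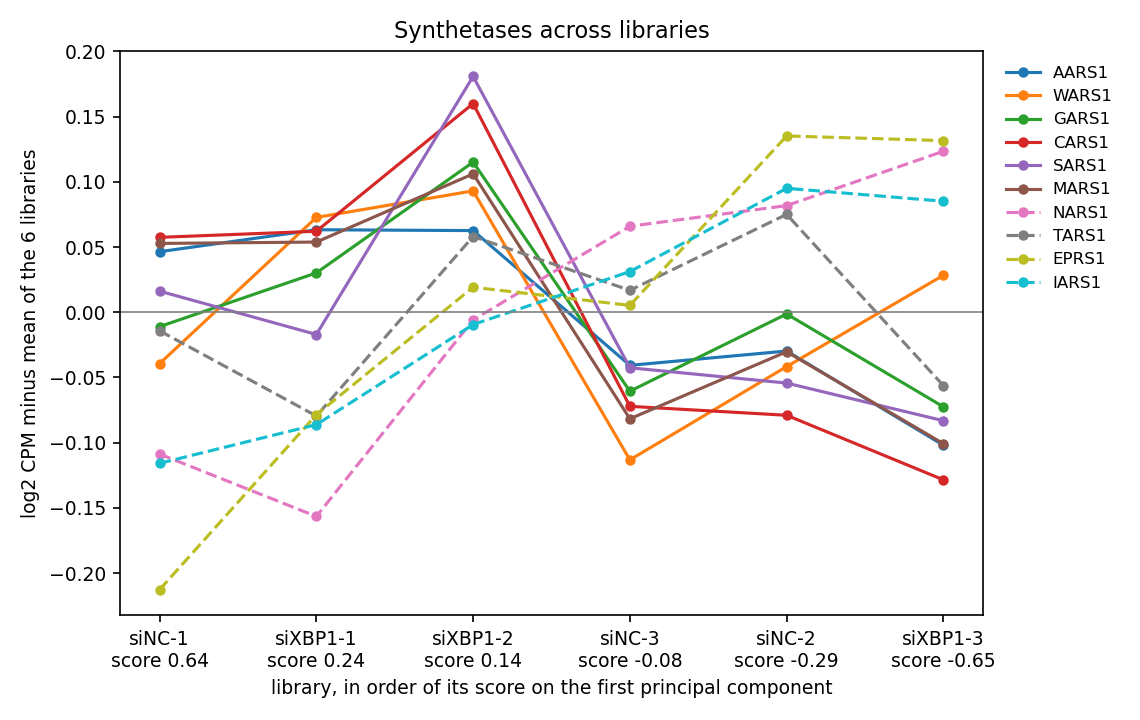
log2 CPM of each synthetase minus its mean over the 6 libraries (y axis), with libraries in order of their score on the first principal component (x axis). Solid lines are genes with a positive and dashed lines genes with a negative correlation with the score; EPRS1, IARS1 and NARS1 are low at siNC replicate 1 and high at siXBP1 replicate 3, and AARS1, CARS1 and MARS1 the reverse.

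A second library also weighed on the direction. siXBP1 replicate 2 was the highest of the 6 libraries for 5 of the 10 genes. Without it, 2 estimates were above 0 and 8 below, and the median log2 fold change of the 10 was -0.01. Without both end libraries of the first component, 6 estimates were above 0 and the median was 0.11. The call count for the 10 was 0 in both fits. Over all genes, 0 of 14580 were called in the first fit, so its count for the 10 could only be 0. In the second fit 702 of 14416 genes were called. The genes whose log2 CPM over the 6 libraries was most like the mean profile of the 10, of 11484 compared, were SERPINB7 (r 0.99), TOR1B (0.99), PAPSS1 (0.99), SMIM19 (0.98) and ACAT2 (0.97). Each of them was highest in siXBP1 replicate 2 too, for example TOR1B with 75.4 CPM there and 63.3 to 67.6 CPM elsewhere. These r values rest on 6 libraries and are a description.

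The other synthetases and their partners were also near 0. Of 11 other cytosolic synthetase genes, 5 had estimates above 0, 6 below and 0 were called (median -0.01). In this list and in those of the scaffold, the editing factors and the mitochondrial enzymes, edgeR gave 0 genes an unadjusted p under 0.05, and DESeq2 and limma-voom called 0. LARS1, the leucine enzyme of the complex, had 242 ± 17.2 CPM in siNC and 246 ± 7.82 in siXBP1 (SD, n = 3 each), and KARS1, the lysine enzyme of cytosol and mitochondria, 219 ± 18.8 and 226 ± 10.6. YARS1, the tyrosine enzyme, had a log2 fold change of 0.09 (SE 0.10). VARS1, the valine enzyme, is named because its counts stood apart. It had 10, 340 and 12 counts in siNC and 2, 0 and 44 in siXBP1, and siNC replicate 2 held most of them. VARS1 did not pass edgeR's test, but was called as lower in siXBP1 with the first component as a covariate and without both end libraries. It lies on chromosome 6 in a stretch where 8 of 87 protein-coding genes within 1000000 bases reached a mean of 1 CPM (9.2%), against 59.4% of the others, with genes that have no row in the table used here counted as not reaching it. Its level is therefore uncertain, and the reason was not tested. Without VARS1 the other 10 had log2 fold changes from -0.10 to 0.09.

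The 3 scaffold genes of the complex (AIMP1, AIMP2 and EEF1E1) had log2 fold changes from -0.03 to 0.01, with 0 called. AIMP1 had 51.1 ± 3.58 CPM in siNC and 51.3 ± 3.55 in siXBP1, and EEF1E1 61.1 ± 2.89 and 60.0 ± 1.18 (SD, n = 3 each). A list of 5 genes for tRNA editing and for elongation factors that receive charged tRNA or bind synthetases had 1 estimate above 0 and 4 below, with 0 called. EEF1A1, the factor that carries charged tRNA to the ribosome, was estimated at 0.04 on the log2 scale (SE 0.09), and EEF1G, a subunit of its exchange factor complex, at -0.09 (SE 0.10).

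Most mitochondrial synthetases had estimates slightly below 0. Of 17 genes, 16 were tested, 15 had estimates below 0 and 1 above, where 47.2% of all genes were below 0. Their median log2 fold change was -0.08 and 0 were called. The groups were separate for 5 of them, all lower in siXBP1 (3.74% of all genes). IARS2, the mitochondrial isoleucine enzyme, had an estimate of -0.01 on the log2 scale (SE 0.09). Between 11 and 15 estimates were below 0 in the 17 alternatives. No test compared the mitochondrial with the cytosolic genes.

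Genes of the ATF4 arm did not pass the edgeR test with group as the only term. ATF4 mRNA had 857, 770 and 772 CPM in siNC and 783, 821 and 684 CPM in siXBP1, overlapping, with a log2 fold change of -0.07 (SE 0.10). Gene counts do not show how much ATF4 protein was translated. EIF2AK3, which encodes PERK, had a log2 fold change of -0.21 (SE 0.12, 95% interval -0.48 to 0.06) and DDIT3 -0.07 (SE 0.11). Of 18 regulators of this arm, 10 had estimates above 0 and 8 below, with a median of 0.01. Of 26 other ATF4 targets, 9 were above 0 and 17 below, with a median of -0.03, but 16 were above 0 (median 0.02) without both end libraries of the first component. In both lists edgeR, DESeq2 and limma-voom called 0, with 1 gene each at an unadjusted p under 0.05 in edgeR (ATF3 and SLC7A5). With the first component as a covariate, 1 regulator was called higher in siXBP1, as were 0.711% of all genes. Without both end libraries 2 regulators were called higher and 1 lower, where 209 of 14416 genes were called higher and 493 lower. Among the other targets these fits called 0 and 1 (lower). ATF3, a stress-induced factor of the ATF family, had 79.5 ± 6.99 CPM in siNC and 107 ± 7.82 in siXBP1 (SD, n = 3 each), with separate groups. Its estimate was 0.42 on the log2 scale (SE 0.11, edgeR unadjusted p = 0.00301, adjusted p = 1.00). ASNS, which makes asparagine, stood at 0.10 on the log2 scale (SE 0.11). TRIB3, a pseudokinase that ATF4 and CHOP induce, stood at -0.09 (SE 0.12). The 2 most counted targets were the amino acid transporters SLC7A5 (-0.21, SE 0.08, unadjusted p = 0.0256, adjusted p = 1.00) and SLC38A2 (0.03, SE 0.14).

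Textbook XBP1s targets, given for scale, all had estimates below 0 (20 of 20), where 47.2% of all genes did. Their median log2 fold change was -0.31, and all lay below the estimates of all 10 synthetases that are ATF4 targets. That separation held on dropping siNC library 2 or siXBP1 library 1. It was lost on dropping siNC library 1 or 3, or siXBP1 library 2 or 3, each singly. It was also lost without both end libraries of the first component. There 19 of 20 targets were below 0, the highest stood at 0.02 and the lowest synthetase at -0.15. None of the 20 targets passed edgeR's test and 13 had an unadjusted p under 0.05, where 1.7% of all genes had such a p and a lower level. DESeq2 called 2 of them, limma-voom 0, the fit with the first component as a covariate 13 and the one without both end libraries 10. All of these calls were lower in siXBP1. Over all genes the covariate fit called 0.488% lower and the fit without both end libraries 493 of 14416. DESeq2 called 0.115% of its genes in either direction. HYOU1, an ER chaperone, had 985 ± 35.5 CPM in siNC and 775 ± 33.9 in siXBP1 (SD, n = 3 each; log2 fold change -0.35, SE 0.08). PDIA4, a disulfide isomerase, had a log2 fold change of -0.26 (SE 0.08). For 14 of the 20 the estimate was below -0.26, the lowest bound of any interval among those 10. The list was drawn up with earlier results of these data known, and the difference between the lists was not tested.

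**Figure D5:**
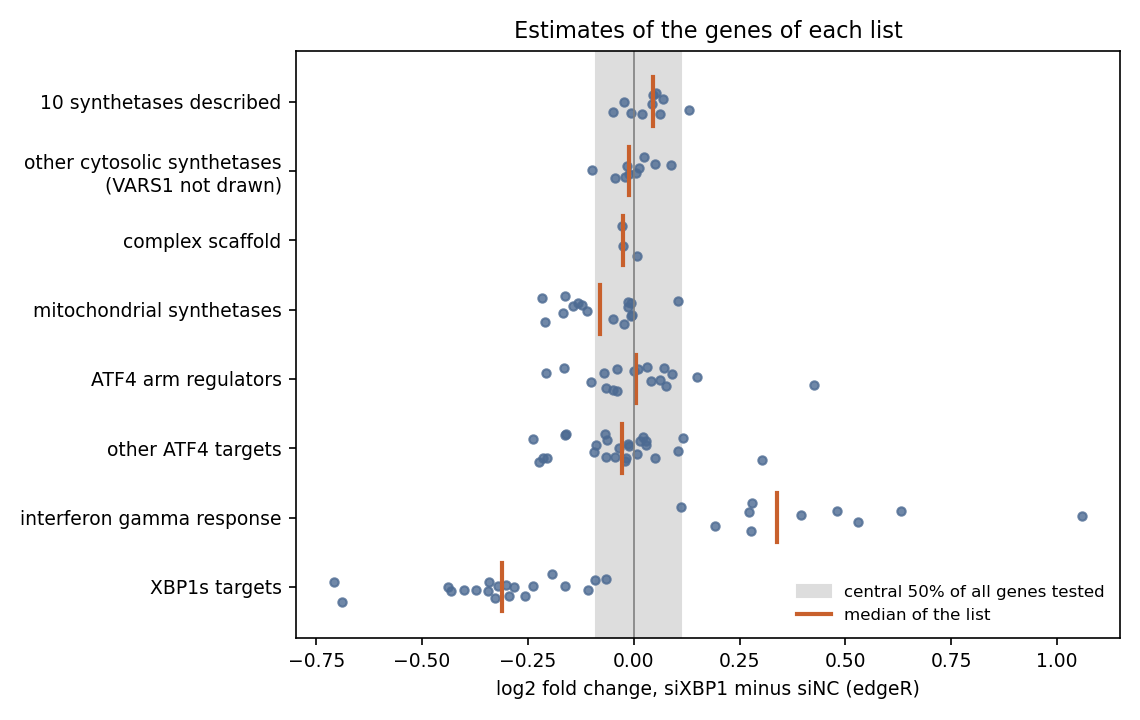
edgeR log2 fold changes (x axis, siXBP1 minus siNC) of single genes (points) in 8 lists, with the median of each list in orange and the central 50% of all genes tested in grey. The 10 synthetases have a median of 0.04 and the XBP1s targets one of -0.31. VARS1 is counted in its list's median but not drawn.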

How the data were processed

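RNA-seq libraries of 3 siNC and 3 siXBP1 samples were used. The authors deposited read counts per NCBI Gene ID, not normalized. STAR 2.5.2a, featureCounts 1.5.0 of Subread and hg38 are named per the submitters' processing notes, and a stranded TruSeq kit per the labels' protocols. No source used here gives the strand setting or the annotation of the counting. The 2 ChIP-seq samples were not analysed here.

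RefSeq (GRCh38.p14) named 18526 of 18555 IDs; the others held 0.00349% of counts. Among counts of 1 to 40, 75.8% to 80.5% were even, so mates may have been counted singly. Genes kept by filterByExpr were normalized with TMM and tested with edgeR 4.0.16 (R 4.3.3, quasi-likelihood, two-sided, group only, 4 residual degrees of freedom), with Benjamini-Hochberg adjustment over all 14337 genes and a threshold of 0.05. A standard error is the log2 fold change over the root of F, and 95% intervals use 9.63 total degrees of freedom. The labels do not tie replicates to separate cultures; p-values then measure only the spread of these samples. Intervals cover no error from reads that are not independent molecules. The procedure was tested on simulated data with known changes. Those counts were drawn independently for each gene, with the same dispersion for all, so the simulation does not cover variation shared between genes within a library. A comparison of levels per coding length was planned but not made, since no protein lengths were used.

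The members, lists and tests were chosen with earlier results of these data known. Named genes are the 10 synthetases, XBP1, ATF4, DDIT3, ASNS, TRIB3, EIF2AK3, KARS1, LARS1, from each list the called genes (up to 4) or else the 2 with the highest mean CPM, and the 5 genes most like the mean profile; some of these are not reported here. ATF3, VARS1, the single genes without a promoter match or row, and other members of short lists were named after their values were seen. Alternatives were 3 other scalings, 2 other filters, DESeq2 1.42.0, limma-voom (limma 3.58.1), the replicate block, leaving out each library or both end libraries of the first principal component, that component as a covariate, and halved counts. The end libraries are siNC replicate 1 and siXBP1 replicate 3, so the fit without them has fewer libraries in each group. That fit and the covariate fit use a component taken from the same counts. Spread within groups can be understated there, and p-values and calls from these 2 fits are descriptions only.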

Additional observations from a re-analysis of the deposited data

How the results depend on the processing

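The count of synthetases called was 0 in all 17 alternatives. Their median log2 fold change lay between -0.013 and 0.073 with 1 library left out (negative without siXBP1 replicate 2 only) and was 0.11 without both end libraries of the first component. With 1 library left out, estimates changed sign for 8 members: AARS1 (-0.019 to 0.060), CARS1 (-0.010 to 0.13), EPRS1 (-0.047 to 0.12), GARS1 (-0.0058 to 0.087), IARS1 (-0.067 to 0.037), MARS1 (-0.013 to 0.088), NARS1 (-0.10 to 0.049) and SARS1 (-0.033 to 0.10). EPRS1 was also negative without both end libraries (-0.095). WARS1 (0.10 to 0.14) and TARS1 (-0.10 to -0.02) kept their sign. XBP1 ranged from -0.88 to -0.80 with 1 library left out and was -0.85 with upper-quartile factors (adjusted p = 0.0546). Over all genes, 1 of 14337 was called by the planned test, 0 with upper-quartile factors and 0 to 1 with 1 library left out. DESeq2 called 16 of 13873, the fit with the first component as a covariate 172 of 14337 and the one without both end libraries 702 of 14416. The cause of these differences was not tested. Same-numbered libraries deviated together for numbers 1 (r 0.61) and 3 (0.45) but not 2 (-0.38). Between numbers, siNC replicate 2 and siXBP1 replicate 3 had r 0.67, and siNC replicate 1 and siXBP1 replicate 3 had -0.77. These values cannot show whether the numbers mark pairs, because deviations within a group depend on one another. With the replicate number as a block, 1 gene and 0 synthetases were called, XBP1 was at -0.84 and the synthetase median was 0.05. An edgeR unadjusted p under 0.05 was then found for 702 of 14337 genes, against 517 without the block. With counts halved, 0 synthetases were called and their median was 0.04. With 3 libraries a group, differences within the intervals given for each gene are compatible with these data.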
